A study of Mus musculus with 9 samples.

Results

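The genes described here make, use and move glycerol and its phosphate in fat: Pck1, Pck2, Pcx, Gpd1, Gpd1l, Gpd2, Aqp7, Aqp3 and Aqp9. They were taken as every probe that carries one of these 9 symbols in the platform's annotation, which gave 16 of the 45281 probes on the array and 9 of 19057 named genes. RNA was measured on Illumina bead arrays in epididymal adipose tissue, the fat pad beside the epididymis, of 9 FVB/N mice aged 3 months that had gone without food for 14 to 16 h. The 5 mice labelled tg/tg were transgenic for the cytoskeletal tropomyosin Tm5NM1, and the 4 labelled wt/wt were wild type; fasting, strain and tissue were the same in both groups. Each array held the RNA of 1 mouse, and mice are named by the submitters' numbers. The promoter that drives the transgene and the tissues that express it are not stated in the sources used here.

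Adipocytes store fatty acids as triglyceride, and each triglyceride needs a glycerol-3-phosphate backbone. White adipocytes make little of that backbone from free glycerol, because they hold little glycerol kinase. During a fast, when glucose uptake is low, part of it comes from pyruvate or lactate by glyceroneogenesis: pyruvate carboxylase (Pcx) makes oxaloacetate, phosphoenolpyruvate carboxykinase (Pck1 in the cytosol, Pck2 in mitochondria) makes phosphoenolpyruvate, and cytosolic glycerol-3-phosphate dehydrogenase (Gpd1) makes glycerol-3-phosphate. The mitochondrial dehydrogenase Gpd2 oxidizes glycerol-3-phosphate and, with Gpd1, forms a shuttle for reducing equivalents. Glycerol released by lipolysis leaves the cell through aquaglyceroporins, water channels that also pass glycerol, of which Aqp7 is the one best known from adipocytes.

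Promoter windows of Pck1 and Aqp7 are shown because these genes, both known as targets of the fat cell receptor PPARG, varied together from mouse to mouse. Each window is 300 bases, from 250 before to 50 after a transcription start, from RefSeq on GRCm38.p6. The table of windows matched 8 of the 9 genes, with 12 windows. Capitals mark matches, on either strand, to TGACGTNA, a form of the cAMP response element, or to AGGTCA, the half-site of nuclear receptors.

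Pck1, chr2:173152823-173153122, plus strand: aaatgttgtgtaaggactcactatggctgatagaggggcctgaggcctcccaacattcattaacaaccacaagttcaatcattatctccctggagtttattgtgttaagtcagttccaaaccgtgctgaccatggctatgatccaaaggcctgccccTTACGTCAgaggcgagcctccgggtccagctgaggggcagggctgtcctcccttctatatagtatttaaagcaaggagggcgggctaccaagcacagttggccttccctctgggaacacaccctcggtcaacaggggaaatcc

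Aqp7, chr4:41047913-41048212, minus strand: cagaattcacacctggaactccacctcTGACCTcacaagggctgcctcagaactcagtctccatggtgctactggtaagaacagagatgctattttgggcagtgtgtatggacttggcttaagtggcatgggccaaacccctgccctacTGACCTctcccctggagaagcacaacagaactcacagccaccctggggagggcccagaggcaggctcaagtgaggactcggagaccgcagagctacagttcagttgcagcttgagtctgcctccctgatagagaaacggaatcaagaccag

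The Pck1 window held 1 match to TGACGTNA, whose first base is at -93 from the start, on the reverse strand. Such a match was found in 2.93% of all 32851 windows and in 1 of the 12 windows of these genes. The Aqp7 window shown held 2 matches to AGGTCA, also on the reverse strand, with first bases at -223 and -101. AGGTCA occurred in 16.3% of all windows and in 3 of the 12, of which 2 are overlapping windows of Aqp7 that share 1 of these matches. The direct repeat of AGGTCA with 1 base between its copies, a form of the PPARG element that also counts as an AGGTCA match, occurred in 0.0396% of all windows and in 0 of the 12. With so rare a match, 0 of 12 windows does not show that these genes lack the element, and bases outside the windows were not searched. These are matches of letters and do not show binding.

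Signal was detected (detection p under 0.05) at 22239 to 23313 probes per array. The median signal before normalization was 142 to 147 in wild-type mice 142, 143 and 159 and 169 to 192 in the transgenic mice and wild-type mouse 141, so an effect of brightness and genotype can hardly be told apart. Values below are log2 intensities after background correction and quantile normalization, and differences are transgenic minus wild type. Tests used the 23354 probes detected on at least 4 arrays, with limma's p-values adjusted over all of them by the Benjamini-Hochberg method. A probe's level cannot be compared with that of another probe. Adipocyte markers were present in every mouse: all 9 tested of 10 markers were detected on all arrays. Adipoq, the adiponectin gene, read from 15.80 in mouse 143 to 16.01 in mouse 147. This is near the top of the scale, where the haemoglobin gene Hba-a1 also reached 16.01, so its narrow range does not show equal adipocyte RNA. Lep read from 13.82 in mouse 159 to 15.38 in mouse 165. Of the 9 markers 5 were higher and 4 lower in transgenic mice, and Fabp4 differed most, by 1.27 (limma adjusted p = 0.369). RNA of the epididymis was present too, in amounts that differed between the mice. The mean of 11 epididymal markers ran from 5.03 to 10.10 in transgenic mice and from 10.87 to 14.14 in wild-type mice, and Adam28, Lcn9 and Rnase10 were not detected on any transgenic array. The groups overlapped at Adam7, Gpx5, Rnase9 and Lcn5 and at none of the other markers. In transgenic mouse 152 Adam7 read 15.99 and Gpx5 15.88, beside 13.20 to 15.87 and 14.08 to 15.89 in wild-type mice.

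13 probes of 6 of these genes passed the filter. Pck2, Gpd1l and Aqp3, with 1 probe each, did not. None of the 13 probes passed the test of transgenic against wild-type fat, with limma adjusted p from 0.443 to 0.962. Over all tested probes 0.0685% were called. At an unadjusted p under 0.05, limma gave 1 of the 13, the brighter Aqp9 probe, against 9.45% of all tested probes. The groups did not overlap at 0 of the 13 probes, against 3.21% of all tested probes. 6 of the 13 differences were above 0 and 7 below, with a median of -0.08, beside 0.05 for all tested probes. What the data showed instead, at Pck1, Pcx, Gpd1, Gpd2 and Aqp7, was variation between mice that crossed genotype. At the brighter Aqp9 probe, the level rose with the epididymal marker mean (r = 0.79) and fell with the adipocyte marker mean (r = -0.79). On deviations from the genotype means these values were 0.57 and -0.81. The epididymal marker means of the genotypes did not overlap.

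**Figure D1:**
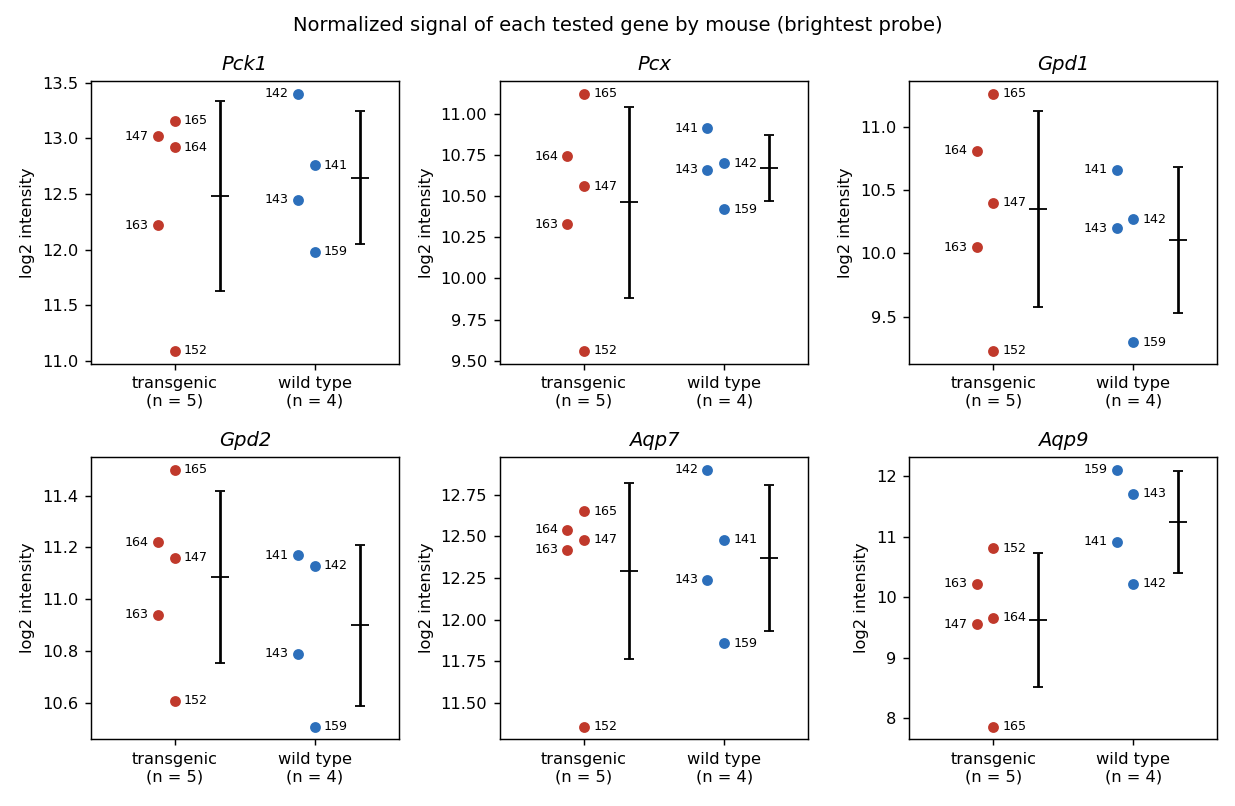
Log2 intensity (vertical axes) of the brightest probe of each of the 6 tested genes, with 1 point per mouse, labelled with its number; the black bars are the mean and SD of 5 transgenic and 4 wild-type mice. Transgenic mouse 152 is the lowest of its group at every gene except Aqp9, where mouse 165 is lowest at 7.86.

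Pcx, which feeds oxaloacetate into the pathway, was measured by 2 probes. At the brighter one, transgenic mice read 11.12 (mouse 165), 9.56 (152), 10.56 (147), 10.33 (163) and 10.74 (164). Wild-type mice read 10.91 (141), 10.70 (142), 10.66 (143) and 10.42 (159), all inside the transgenic range. The difference was -0.21, with a 95% confidence interval of -0.83 to 0.41 (limma adjusted p = 0.850). The dimmer Pcx probe spread much further: it read 9.66, 5.97, 7.02, 6.16 and 7.99 in the transgenic mice in the same order and 8.82, 8.54, 8.46 and 7.30 in wild-type mice 142, 143, 141 and 159. Mice 152 and 163 were the lowest and mouse 165 the highest, a 13-fold range within the transgenic group. Its difference was -0.92, with an interval of -2.47 to 0.63 (limma adjusted p = 0.707). It was -1.49 without mouse 165, -0.57 without mouse 152 and -0.46 with no background correction, and was called in none of these. Its spread within genotypes, an SD of 1.23, was exceeded by 1.39% of all tested probes, whose median SD was 0.31. Which Pcx transcripts each probe detects is not stated in the sources used here.

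Pck1, the cytosolic carboxykinase and the step of glyceroneogenesis most under hormonal control, was also measured by 2 probes. The brighter one read 13.16 (mouse 165), 11.09 (152), 13.02 (147), 12.22 (163) and 12.92 (164) in transgenic mice, and 12.76 (141), 13.40 (142), 12.45 (143) and 11.98 (159) in wild-type mice. Transgenic mouse 152 was lowest and wild-type mouse 142 highest, 4.96-fold apart, and the groups overlapped from 11.98 to 13.16. The means were 12.48 ± 0.86 (SD, n = 5) and 12.65 ± 0.60 (SD, n = 4). The difference of -0.17 had an interval of -1.14 to 0.80, that is from 0.454 to 1.75 times the wild-type level (limma adjusted p = 0.930). The dimmer probe gave a difference of -0.10, with an interval of -1.04 to 0.85 (limma adjusted p = 0.962), and again mouse 152 was the lowest, at 9.63. The sign of the Pck1 difference rested on single mice: it was 0.18 at the brighter probe without mouse 152 and 0.08 without mouse 142. These intervals leave room for a change of up to about the size of the spread between mice in either direction.

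Pck2, the mitochondrial carboxykinase, was detected on 0 of 9 arrays. Its probe signal ran from 91.2 to 129.5 before normalization, with the lowest detection p at 0.690. No level above background can be given for it, and it was not tested.

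Gpd1, which turns dihydroxyacetone phosphate into glycerol-3-phosphate, had 1 probe. Transgenic mice read 11.26 (mouse 165), 9.23 (152), 10.40 (147), 10.05 (163) and 10.81 (164), and wild-type mice 10.66 (141), 10.27 (142), 10.20 (143) and 9.30 (159). Both groups had 1 mouse near the bottom, 152 and 159. The difference was 0.24, with an interval of -0.65 to 1.14 (limma adjusted p = 0.885), and it was -0.03 without mouse 159.

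Gpd2, the mitochondrial partner of Gpd1, was less variable. Its brighter probe read 11.50 (mouse 165), 10.61 (152), 11.16 (147), 10.94 (163) and 11.22 (164) in transgenic mice and 11.17 (141), 11.13 (142), 10.79 (143) and 10.51 (159) in wild-type mice. As with Gpd1, mouse 165 was highest and mice 152 and 159 lowest. The difference was 0.18, with an interval of -0.28 to 0.65 (limma adjusted p = 0.825). At the dimmer probe it was 0.42, with an interval of -0.12 to 0.97 (limma adjusted p = 0.620).

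Gpd1l, which encodes a protein related to Gpd1, was detected in 2 transgenic mice and 1 wild-type mouse. Its signal before normalization was 113.6 to 178.7, and it was not tested.

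Aqp7, the glycerol channel of adipocytes, was measured by 4 probes, all detected on every array. The brightest read 12.65 (mouse 165), 11.36 (152), 12.48 (147), 12.42 (163) and 12.54 (164) in transgenic mice and 12.48 (141), 12.90 (142), 12.24 (143) and 11.86 (159) in wild-type mice. 4 of the 5 transgenic mice lay within 0.23 of each other and mouse 152 stood 1.06 below the nearest of them. The means were 12.29 ± 0.53 (SD, n = 5) and 12.37 ± 0.44 (SD, n = 4). The difference was -0.08, with an interval of -0.74 to 0.57 (limma adjusted p = 0.951). The other probes gave 0.13, 0.20 and 0.23 (limma adjusted p = 0.918, 0.883 and 0.875), so the sign differed between probes. Without mouse 152 all 4 probes were above 0, from 0.15 to 0.48, and without wild-type mouse 159 all 4 were below 0, from -0.25 to -0.03.

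Aqp3, an aquaglyceroporin of epithelia such as skin and kidney, was detected in 1 transgenic mouse and 1 wild-type mouse. Its signal before normalization was 124.8 to 179.0, and it was not tested.

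Aqp9, best known as the glycerol channel of liver and also present in the epididymis, stood apart from the rest. Its brighter probe read 7.86 (mouse 165), 10.81 (152), 9.55 (147), 10.22 (163) and 9.66 (164) in transgenic mice and 10.92 (141), 10.22 (142), 11.71 (143) and 12.11 (159) in wild-type mice. The groups overlapped: transgenic mouse 152 lay above wild-type mouse 142, and mouse 163 read the same as mouse 142 to 2 decimals. The means were 9.62 ± 1.10 (SD, n = 5) and 11.24 ± 0.84 (SD, n = 4). The difference was -1.62, with an interval of -2.88 to -0.35 before any adjustment for the number of probes, and it did not pass over all probes (limma unadjusted p = 0.0174, adjusted p = 0.443). The dimmer probe read 6.26, 6.09, 6.36, 5.85 and 6.25 in transgenic mice 165, 152, 147, 163 and 164 and 6.30, 6.30, 7.0 and 9.44 in wild-type mice 141, 142, 143 and 159. There the difference of -1.10, with an interval of -2.35 to 0.15 (limma adjusted p = 0.576), came mostly from mouse 159, without which it was -0.37.

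**Figure D2:**
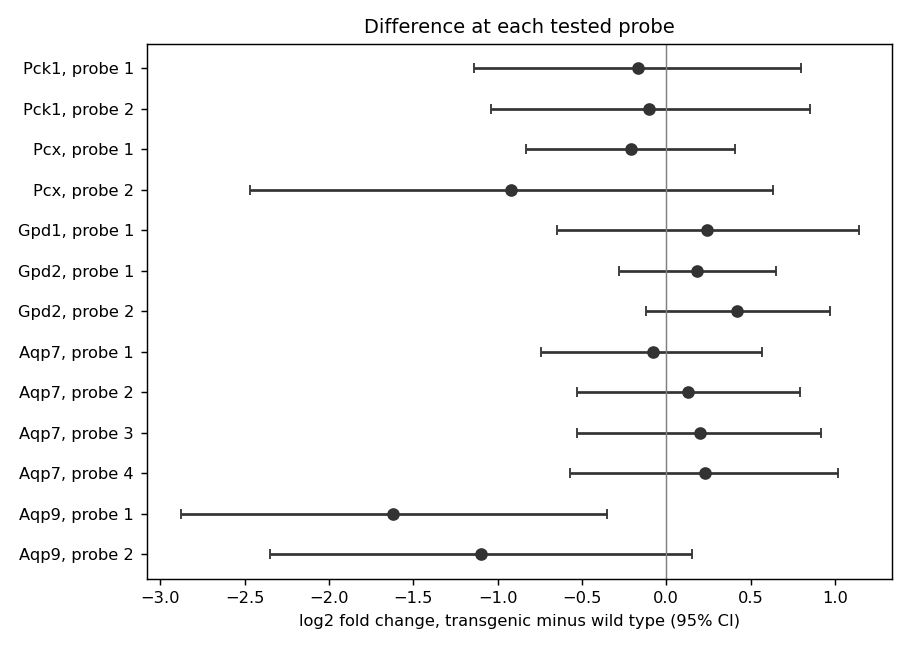
Log2 fold change, transgenic minus wild type (horizontal axis), with its 95% confidence interval at each of the 13 tested probes; probe 1 is the brightest of its gene. All intervals include 0 except that of Aqp9 probe 1, from -2.88 to -0.35, which did not pass after adjustment over all probes.

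Epididymal markers moved with the brighter Aqp9 probe. The mean of the 11 markers was lowest in transgenic mice 165, 164 and 163, at 5.03, 5.15 and 5.20. Adam28, Lcn9 and Rnase10 were not detected in these mice, so their order in the marker mean carries little. Aqp9 still differed between them, at 7.86, 9.66 and 10.22. The marker mean was 7.54 in mouse 147 and 10.10 in mouse 152. Wild-type mice read 10.87 (142), 11.87 (159), 13.20 (141) and 14.14 (143). Over the 9 mice the marker mean and Aqp9 had r = 0.79 (exact permutation p = 0.00769, adjusted 0.0184) and rho = 0.83 (exact permutation p = 0.00827, adjusted 0.0319). The relation was 0.57 on deviations from the genotype means, and 0.71 without mice 165 and 164, whose marker means were farthest from the median (exact permutation p = 0.0746, n = 7). With the epididymal marker mean as a covariate the Aqp9 difference was 0.12 at the brighter probe (limma adjusted p = 0.977). At the dimmer probe it was -1.28 (limma adjusted p = 0.704). With the adipocyte marker mean as a covariate, chosen after seeing the data, the brighter probe differed by -1.11 (limma adjusted p = 0.424). In bulk tissue, fewer cells of a type and less RNA per cell cannot be told apart. The epididymal marker means of the genotypes did not overlap, so that covariate and genotype can hardly be told apart. Among other cell types, 3 of 4 basal epithelial markers were lower, with means of 6.53 to 9.68 in transgenic and 8.32 to 10.20 in wild-type mice. All 6 mesothelial markers were lower, with a median difference of -1.0 and means of 6.84 to 9.71 and 8.70 to 10.19. All 7 endothelial markers were higher, with a median of 0.42 and means of 11.28 to 12.26 and 11.33 to 11.83. Of 5 macrophage and neutrophil markers 4 were higher, with means of 10.40 to 11.75 and 10.98 to 11.24. The groups overlapped in each of these 4 means and none of these markers was called by limma, with a lowest adjusted p of 0.345. The part of these cell types in the Aqp9 difference was not tested.

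The other 5 tested genes were then compared with each other across the 9 mice, to see whether they varied as a group. 27 relations were computed, 15 between member genes and 12 with the epididymal or the adipocyte marker mean, with two-sided exact permutation p-values and Benjamini-Hochberg adjustment over the 27. Each gene was represented by its brightest tested probe only. Among Pck1, Pcx, Gpd1, Gpd2 and Aqp7 all 10 pairs were positive, with r from 0.76 to 0.96, and all 10 passed by r. Pck1 and Aqp7 had r = 0.96 (exact permutation p = 9.64e-05, adjusted 0.00102) and rho = 0.93 (exact permutation p = 0.00075, adjusted 0.00675), and 0.96 on deviations from the genotype means. Gpd1 and Gpd2 had r = 0.96 (exact permutation p = 0.000113, adjusted 0.00102) and rho = 0.97 (exact permutation p = 0.000165, adjusted 0.00446), and also 0.96 within genotypes. Pcx and Gpd1 had r = 0.86 (exact permutation p = 0.00117, adjusted 0.00634) and rho = 0.92 (exact permutation p = 0.00131, adjusted 0.00885).

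Many of these calls rested on a few mice. 12 of the 18 relations that passed by r also passed by rho. Of the 18, 11 passed without transgenic mouse 152, 12 without transgenic mouse 165 and 15 without wild-type mouse 159. Each relation was also computed without the 2 mice farthest from the median of its first measure, which were mice 165 and 164 for the epididymal marker mean and mouse 152 with 159 or 165 for the others, and 4 of the 18 kept an unadjusted exact permutation p under 0.05. They were Pck1 with Aqp7, where r was 0.84 (exact permutation p = 0.0159, n = 7), Gpd1 with Gpd2, where r was 0.92 (exact permutation p = 0.00317, n = 7), Gpd2 with Aqp9 and Gpd2 with the adipocyte marker mean. The other 14 did not reach that p with 7 mice, and their r fell by unequal amounts. Pck1 with Gpd1 had r = 0.82 with all mice (exact permutation p = 0.0056, adjusted 0.0151) and 0.49 without those 2 (exact permutation p = 0.262, n = 7). Pcx with Gpd1 stayed at 0.73 (exact permutation p = 0.0544, n = 7), and Aqp9 with the adipocyte marker mean at -0.77 (exact permutation p = 0.0544, n = 7).

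Adipocyte markers moved with these genes. The mean of 9 markers was lowest in mice 159 and 152, at 11.97 and 12.14, and highest in mouse 165, at 12.92. In mouse 159 the markers disagreed. Lep, Retn, Plin1 and Slc2a4 were the lowest of the 9 mice, at 13.82, 6.79, 10.26 and 9.47, but Cidec was the highest, at 15.30. The low mean therefore does not hold for each marker. The marker mean had an r of 0.96 with Gpd2 (exact permutation p = 6.89e-05, adjusted 0.00102) and 0.91 with Gpd1 (exact permutation p = 0.000675, adjusted 0.00456). With Aqp7 it was 0.79, with Pck1 0.76 and with Pcx 0.68, the last not past adjustment (exact permutation p = 0.0361, adjusted 0.0512). Mouse 152 also had the lowest mean of endothelial markers, 11.28 against 11.33 to 12.26 in the others, and of erythroid markers, 13.78 against 14.26 to 14.54. Its mean of macrophage and neutrophil markers was the lowest too, 10.40 against 10.98 to 11.75. Its epididymal markers were uneven. Adam7 and Lcn5 were the highest of the 9 mice, at 15.99 and 14.70, while Adam28, Lcn9 and Rnase10 were not detected. The arrays of mice 159 and 152 got the lowest of limma's array weights, 0.347 and 0.369. The part of cell makeup or of array quality in the relations was not tested. The brighter Aqp9 probe ran the other way, with r = -0.85 against Gpd2 (exact permutation p = 0.00359, adjusted 0.0147) and -0.79 against the adipocyte marker mean (exact permutation p = 0.00904, adjusted 0.0184). Its relation to Pck1 did not pass (r = -0.54, exact permutation p = 0.135, adjusted 0.183). Relations of the dimmer Aqp9 probe were not computed. The epididymal marker mean itself had r between -0.52 and -0.10 with Pck1, Pcx, Gpd1, Gpd2 and Aqp7, and none of these passed. On deviations from the genotype means these values were -0.66, -0.66, -0.51, -0.54 and -0.74.

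**Figure D3:**
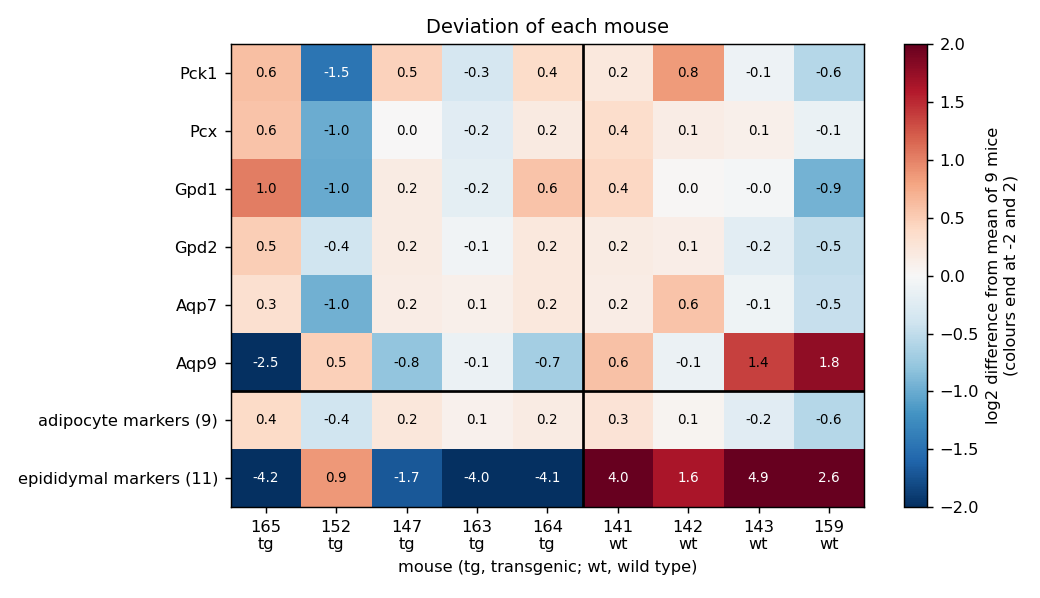
Log2 difference of each mouse (columns) from the mean of the 9 mice, for the brightest probe of each tested gene and for the mean of 9 adipocyte and 11 epididymal markers (rows); red is above and blue below the mean, and colours end at -2 and 2. Mouse 152 is at -1.47 for Pck1 and -0.97 for Aqp7, mouse 165 at -2.48 for Aqp9 and -4.20 for the epididymal markers.

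**Figure D4:**
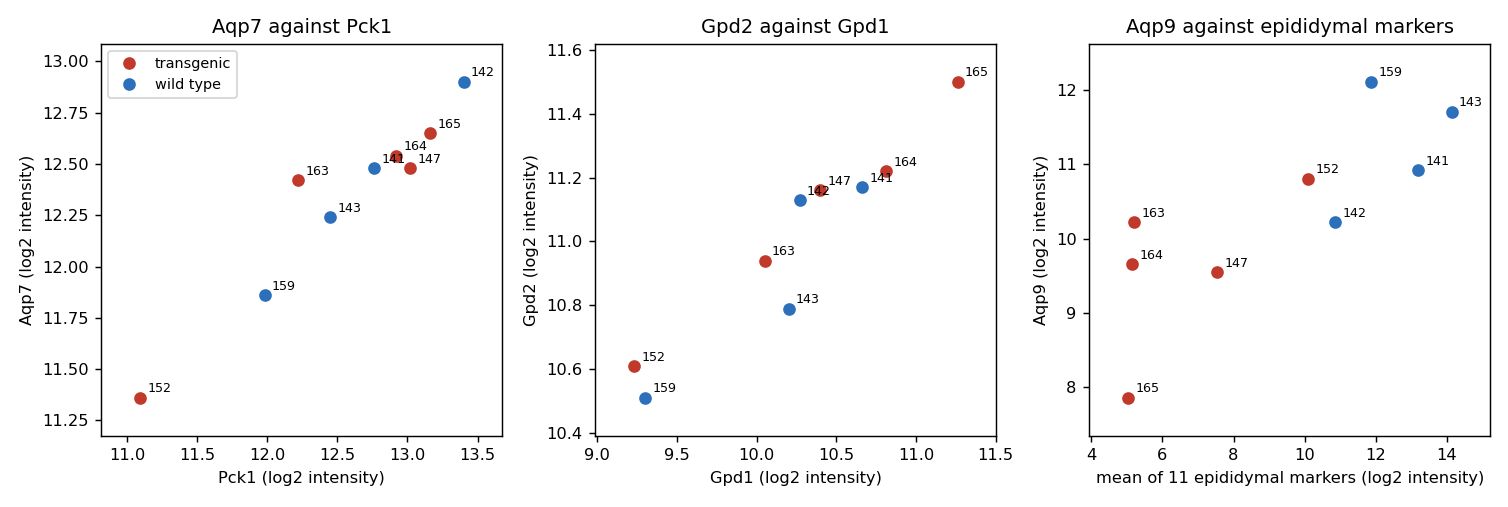
Log2 intensity in each mouse, labelled with its number (red, transgenic; blue, wild type), for Aqp7 against Pck1, Gpd2 against Gpd1, and Aqp9 against the mean of 11 epididymal markers. In the left and middle panels mice of both genotypes lie along one line, with r = 0.96 in each, and mice 152 and 159 at its lower end; in the right panel transgenic mouse 165 is lowest at 7.86.

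Genes whose pattern over the 9 mice was most like that of a member were found among the 12171 genes with a tested probe, by Pearson's r, as a description. For Pck1 they were Dolk, the dolichol kinase gene (r = 0.97), Aqp7 (0.96) and Mfsd13b (0.96). For Gpd1 they were the deubiquitinase gene Usp13 (0.98), Fasn, which encodes fatty acid synthase (0.97), and Orm1, of the acute phase (0.97). For Aqp7 they were Syp, Tnfrsf22 and Heg1 (0.97 each), and for Aqp9 Arhgef16 (0.98), Rab19 (0.97) and Radx (0.97). These are the highest values among all the genes compared. An r of at least 0.8, a lower mark, was reached by 2.94% of the other genes with Pck1, 5.18% with Gpd1, 3.75% with Aqp7 and 3.04% with Aqp9.

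The genes around this pathway were compared in 8 lists with 84 genes, of which 69 were tested. None was called by limma, beside 0.107% of all tested genes, and 5 had an unadjusted p under 0.05, which is 7.25% beside 9.05% of all tested genes. 35 were higher, beside 56.5% of all tested genes, and 34 lower, with a median difference of 0.01 beside 0.04 for all tested genes.

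Lipolysis, which frees glycerol, showed no called gene among 7 tested of 8, with 3 higher and 4 lower and a median of -0.06. Pnpla2, the first lipase of triglyceride breakdown, differed by -0.32, its coactivator Abhd5 by -0.24, and its inhibitor G0s2 by 0.36 (limma adjusted p = 0.638, 0.721 and 0.735). G0s2 read 11.08 in wild-type mouse 159 and 11.99 to 12.84 in the other mice, and its difference was 0.04 without mouse 159.

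Esterification of glycerol-3-phosphate was measured by 12 of 14 genes, 6 higher and 6 lower, with a median of -0.01 and none called. Lpin3, of the lipin family of phosphatidate phosphatases, had the largest difference of the list's named genes. It read 6.16 (mouse 165), 6.95 (152), 6.06 (147), 5.84 (163) and 5.77 (164) in transgenic mice and 9.09 (141), 7.18 (142), 9.45 (143) and 7.93 (159) in wild-type mice. The groups did not overlap, and mice 141 and 143, with the highest epididymal marker means, were also the highest in Lpin3. The difference was -2.25, with an interval of -3.24 to -1.26 (limma adjusted p = 0.166), and it passed without mouse 142 (limma adjusted p = 0.0393) and with array weights (limma adjusted p = 0.0148). With the epididymal marker mean as a covariate it was -0.39 (limma adjusted p = 0.841). The acyltransferase genes Agpat3 and Agpat4 differed by 0.40 and -0.31 (limma adjusted p = 0.566 and 0.638).

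Glycerol kinases and the phosphatase of glycerol-3-phosphate were measured by 2 of 4 genes. Gk5, related to glycerol kinase, differed by -0.37 and the phosphatase Pgp by -0.07 (limma adjusted p = 0.670 and 0.944). Gk, the main glycerol kinase gene, is not analysed here.

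Genes that supply carbon to oxaloacetate, among them malate, aspartate and lactate enzymes and the pyruvate dehydrogenase kinases, were tested at 14 of 19, with 8 higher, 6 lower, a median of 0.06 and none called. Ldhb, a lactate dehydrogenase subunit, differed by 0.28 and Gpt, an alanine aminotransferase, by 0.67 (limma adjusted p = 0.559 and 0.614). Without mouse 159 Gpt differed by 0.31. Pdk4, which spares pyruvate during fasting by inhibiting pyruvate dehydrogenase, ranged from 10.23 to 12.47 in transgenic and from 11.54 to 14.12 in wild-type mice, a difference of -1.0 with an interval of -2.31 to 0.30 (limma adjusted p = 0.622). The highest value was that of mouse 159, which was low in Pck1, Gpd1 and Aqp7, and without it the Pdk4 difference was -0.48. It was -0.32 with array weights and -3.47 with the epididymal covariate (limma adjusted p = 0.729 and 0.210). The steps from phosphoenolpyruvate to triose phosphate were tested at 7 of 8 genes, 5 higher and 2 lower, with a median of 0.13. The glycolytic genes Pgam1 and Pgk1 differed by 0.30 and 0.13 and the gluconeogenic Fbp1 by -0.49 (limma adjusted p = 0.575, 0.766 and 0.704). The other tested probes of Pgam1 and Pgk1 gave 0.05 and 0.09. Without transgenic mouse 165 Fbp1 differed by -0.13.

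Transcription factors known to act on Pck1 were tested at 13 of 15, with 9 higher, 4 lower and a median of 0.10, and none was called. Cebpb, a factor that acts on Pck1 and in early fat cell differentiation, was nearest to the threshold. It read 12.30 (mouse 165), 11.87 (152), 12.05 (147), 12.13 (163) and 12.24 (164) in transgenic mice and 12.72 (141), 12.87 (142), 12.78 (143) and 13.10 (159) in wild-type mice. The groups did not overlap, and the difference was -0.75, with an interval of -1.06 to -0.44 (limma adjusted p = 0.143). It passed with array weights (limma adjusted p = 0.0295). Nr3c1, the glucocorticoid receptor, differed by 0.57 and Creb1, which binds the cAMP response element, by 0.38 at its brightest probe and -0.03 at the other (limma adjusted p = 0.527 and 0.544 for the first of each). Pparg itself differed by 0.15 at its brightest probe (limma adjusted p = 0.880) and by 0.40 and 0.32 at the others.

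Fasting and glucocorticoid response genes were lower at 7 of 8, with a median of -0.29 and none called. Sgk1, a kinase, differed by -0.77, Cdkn1a, an inhibitor of the cell cycle, by -0.93, and Fkbp5, a cochaperone of the glucocorticoid receptor, by -0.58 (limma adjusted p = 0.450, 0.551 and 0.616). Without wild-type mouse 159, Sgk1 differed by -0.49 and Cdkn1a by -0.42. Fkbp5 differed by -0.88 without transgenic mouse 152 and by 0.75 with the epididymal covariate. Among other aquaporins, 3 of 6 tested genes were higher and 3 lower, with a median of 0.06. Aqp1, the water channel of endothelium, differed by 0.21 and Aqp5 by -0.38 (limma adjusted p = 0.766 and 0.659). Aqp2, known from the kidney collecting duct, was detected in 4 transgenic mice and no wild-type mouse, with means of 5.88 and 5.43. Against the lowest detected signal the ratio was 1.15-fold, which is no strict minimum because the transgenic mean includes the mouse without detection. The groups overlapped, and the difference of 0.44 did not pass (limma adjusted p = 0.451). With no background correction the difference was 0.15.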

How the data were processed

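RNA of epididymal fat was measured on 1 Illumina array for each of 5 transgenic and 4 wild-type mice. Trizol extraction, RNeasy columns with DNase I, and biotin-labelled cRNA from the Ambion MessageAmp kit are recorded in the labels' protocols. The sources used here do not state how arrays were scanned or whether the authors normalized them. The series matrix holds linear intensities as the authors deposited them. Another deposited table, named non-normalized, pairs an intensity with a detection p-value, per the file headers. On 8 of the 9 arrays its intensities were 0.8 to 0.95 times those of the series matrix and broke the order of the detection p-values at 5386 to 6789 places, while those of the series matrix broke it at 0, so the series matrix was used with these p-values.

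neqc of limma 3.58.1 (R 4.3.3) corrected the background, with an offset of 16, and normalized by quantiles; values are log2. The test kept the 23354 probes that at least 4 arrays detected (detection p under 0.05). lmFit and eBayes compared the genotypes with no covariate, two-sided, with Benjamini-Hochberg adjustment over all kept probes and a threshold of 0.05. The steps were tested on simulated data, with noise capped below that of the most variable probes. Probes of Pck1, Pcx, Gpd1 and Aqp9 are among those above the cap, so the simulation does not cover their noise. Probes were named from the platform annotation: 34885 had 1 symbol, 18 had several and 10378 are not named here, and symbols of 34807 were matched to RefSeq by Entrez identifier. Where a gene had several kept probes, the one of highest mean level represents it. A fold for a gene undetected in a whole group was taken against the lowest detected signal of each array, or the probe's own signal where higher.

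Named genes were every probe of the 9 genes, the 3 tested genes with the lowest unadjusted p in each of 8 pathway lists, and the 3 genes most like Pck1, Gpd1, Aqp7 and Aqp9 in pattern; Pparg was added after its value was seen. Lipe, Plin1 and Cidec stand in both the lipolysis list and the adipocyte markers. The genes and lists were chosen with earlier results of these data known. Alternatives were other background, scaling, filter, weight and prior settings, marker means as covariates and leaving out each mouse.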

Additional observations from a re-analysis of the deposited data

Results flagged for a closer look

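In 76 groups of values, 2 for each tested probe of the members, each other named pathway gene and both marker means, 7 had a mouse far from the others of its group by Dixon's criterion, which chance gives in about 1 group in 20. The groups were not independent, because probes of the same gene were counted separately, so the 7 cannot be read against that rate. 5 of the 7, several of them at Aqp7, were transgenic mouse 152. It read 11.36 at the brightest Aqp7 probe, where the next transgenic mouse read 12.42, 11.04 at the second probe (next 12.13) and 10.57 at the third (next 11.78). It also read 11.48 for Abhd5 (next 12.08) and, as the highest, 12 for Fkbp5 (next 10.73). Wild-type mouse 159 read 11.08 for G0s2, where the next wild-type mouse read 12.32. Transgenic mouse 165 read 7.15 for Fbp1, where the next transgenic mouse read 8.71.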

How the results depend on the processing

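No paired analysis was possible because the mouse numbers are not shared between the genotypes. None of the member probes was called in any of the 20 alternatives, of which the one with the adipocyte marker mean as a covariate was chosen after seeing the data. The lowest adjusted p among them was 0.0711, for the dimmer Gpd2 probe without normalization between arrays, which moved the median difference of all probes to 0.43. No member difference was called, but signs of uncalled differences turned: at 4 of 13 probes without normalization, 4 without mouse 152, 4 without mouse 159, 3 without mouse 142, 1 without mouse 141 and 1 without mouse 163, 6 with the epididymal marker mean as a covariate and 5 with the adipocyte marker mean. Both Aqp9 probes stayed below 0 except for 0.12 at the brighter one with the epididymal covariate, and its adjusted p ranged from 0.123 to 0.977. With that covariate the brighter Pck1 probe differed by -1.70 (limma adjusted p = 0.382). Among the named pathway genes that covariate turned Gk5 to 0.46, Pgp to 0.95, Nr3c1 to -0.08, Aqp1 to -0.21 and Fkbp5 to 0.75, none of them called. The table called non-normalized, the other offset, 75th percentile scaling and no background correction turned no member sign.

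The number of all probes called, 16, became 1332 without normalization between arrays, 353 with array weights, 9 with no filter, 1 with probes detected on all arrays, 9 with the epididymal covariate, and 9 to 50 when 1 mouse was left out. Of the pathway genes, 2 were called without normalization (Lpin3 and Ldhb) and 2 with array weights (Lpin3 and Cebpb), and 0 to 1 when 1 mouse was left out. The number of relations past adjustment, 18, was 11 to 19 when 1 mouse was left out, lowest without mouse 152. The cause of these shifts was not tested. The number of arrays limits every value, and the probes of Pck2, Gpd1l and Aqp3 lay too near background to compare.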
